A study of Mus musculus with 8 samples.

Results

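The genes described here are 10 liver genes of fatty acid synthesis and its control, in mice given the antisense oligonucleotide SPC3833 and in mice given saline. They were chosen by their place in the pathway, with earlier results of these data known, so the shares below describe the list and do not test it. The genes, given by Ensembl gene ID, are 6 enzymes of the pathway (Fasn, Acaca, Acly, Scd1, Elovl6 and Me1), 3 regulators (Srebf1, Mlxipl and Thrsp) and the glycolytic enzyme gene Pklr. All 10 had a row among the 22361 genes of the expression table, and none was left out for low signal. With SPC3833, 9 of the 10 were called lower and 0 higher, where 1.74% of all genes were called lower and 4.07% in either direction. The levels of the 9 were 1.43-fold to 2.64-fold below those of saline, with the largest change in Fasn. The remaining gene, Mlxipl, was 1.35-fold lower and did not pass the test.

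The liver makes fatty acids from surplus carbohydrate, a process called de novo lipogenesis. Glycolysis, whose last step in the liver is run by the pyruvate kinase encoded by Pklr, delivers pyruvate to the mitochondria, and citrate leaves them. ATP citrate lyase (Acly) splits citrate to acetyl-CoA in the cytosol, acetyl-CoA carboxylase (Acaca) makes malonyl-CoA from it, and fatty acid synthase (Fasn) joins these units into palmitate with NADPH that malic enzyme (Me1) helps to supply. Elovl6 lengthens palmitate, and the desaturase Scd1 puts a double bond into the product. Transcription of these genes is raised after feeding by the sterol regulatory element-binding protein encoded by Srebf1, which acts downstream of insulin, and by the carbohydrate response element-binding protein encoded by Mlxipl, which acts downstream of glucose. Thrsp, known as Spot 14, is a small protein of lipogenic tissues that responds to thyroid hormone and carbohydrate.

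The data were 8 Affymetrix arrays of liver RNA, each from 1 female C57BL/6 mouse (C57BL/6J in the growth protocol) weighing 20 ± 2 g and fed standard diet ad libitum. The SPC3833 group (n = 4) received 5 mg/kg of the oligonucleotide into a vein on each of 3 successive days, and the other group (n = 4) received saline. An antisense oligonucleotide is a short synthetic nucleic acid that binds a complementary RNA. The labels used here name neither its target nor the age of the mice, and the arrays used here include no oligonucleotide of another sequence, so an effect of this sequence and one of any such oligonucleotide cannot be told apart. The time of sampling is given both as 4 days after the first dose and as day 3 counted from the first dose. The labels record free access to food but not the hour of the last meal or of sacrifice.

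Values are log2 expression as deposited, so a difference of 1 is a 2-fold change. Over the whole table the log2 fold change had a median of 0.03. SPC3833 array 4 was low in the brightest genes, and SPC3833 array 2 was high in genes of middle level. On SPC3833 array 4 the 30 genes above 13 in saline lay at a median of -0.68 relative to the saline mean, against 0.03 to 0.05 on the other SPC3833 arrays. SPC3833 array 2 was at a median of 0.13 over the 2312 genes with a saline level of 8 to 11, the range that holds 9 of the 10 genes, against -0.05 to 0.00 on the other 3. Values without array 4 are given beside each of the 6 genes for which it was the lowest SPC3833 array, and values without array 2 or without both beside Scd1. Fewer hepatocytes in a sample and less RNA per hepatocyte cannot be told apart in whole liver. Markers of hepatocytes, adipocytes and other cell types were not analysed here, because the gene IDs could not be paired with symbols, so the tissue label was not checked against them.

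Fatty acid synthase, Fasn (ENSMUSG00000025153_at), showed the largest change of the 10. In saline livers its log2 expression was 10.66, 10.37, 10.74 and 10.61 on arrays 1 to 4. In SPC3833 livers it was 9.51, 9.40, 9.01 and 8.86. The groups were well apart: the highest SPC3833 value lay 0.86 below the lowest saline value, and the SD between mice was 0.16 with saline and 0.31 with SPC3833 (n = 4 each). Fasn fell 2.64-fold (95% interval 2.12 to 3.29), to 37.9% of the saline level, with a log2 fold change of -1.40 (SE 0.144, limma adjusted p = 0.000461). Only 21 of the 22361 genes, Fasn included, had a log2 fold change this low or lower. Without SPC3833 array 4, the lowest of its group, the log2 fold change of Fasn was -1.29 (limma adjusted p = 0.00111).

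The enzyme that supplies its substrate, ATP citrate lyase (Acly, ENSMUSG00000020917_at), moved almost as far. Acly was at 10.66, 10.44, 10.71 and 10.69 with saline and at 9.44, 9.54, 9.61 and 8.95 with SPC3833. SPC3833 arrays 1 to 3 lay close together and array 4 lay lower, and the highest SPC3833 value was 0.83 below the lowest saline value. The log2 fold change was -1.24 (SE 0.138, 95% interval -1.54 to -0.94, limma adjusted p = 0.000762), a level 2.36-fold below saline. Without SPC3833 array 4 it was -1.09, with a limma adjusted p of 0.000376.

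Acetyl-CoA carboxylase (Acaca, ENSMUSG00000020532_at), the step between Acly and Fasn, changed less. Its values were 8.51, 8.33, 8.59 and 8.57 in saline livers and 7.84, 7.97, 7.96 and 7.50 in SPC3833 livers. Again array 4 was the lowest of its group, and the groups were 0.36 apart at their nearest values. Acaca fell 1.60-fold, by 0.68 on the log2 scale (SE 0.116, limma adjusted p = 0.00849), and leaving out array 4 gave a log2 fold change of -0.575 (limma adjusted p = 0.0121). Its 95% interval (-0.93 to -0.43) ended above that of Fasn (-1.72 to -1.08). Whether these 2 changes differ was not tested.

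**Figure D1:**
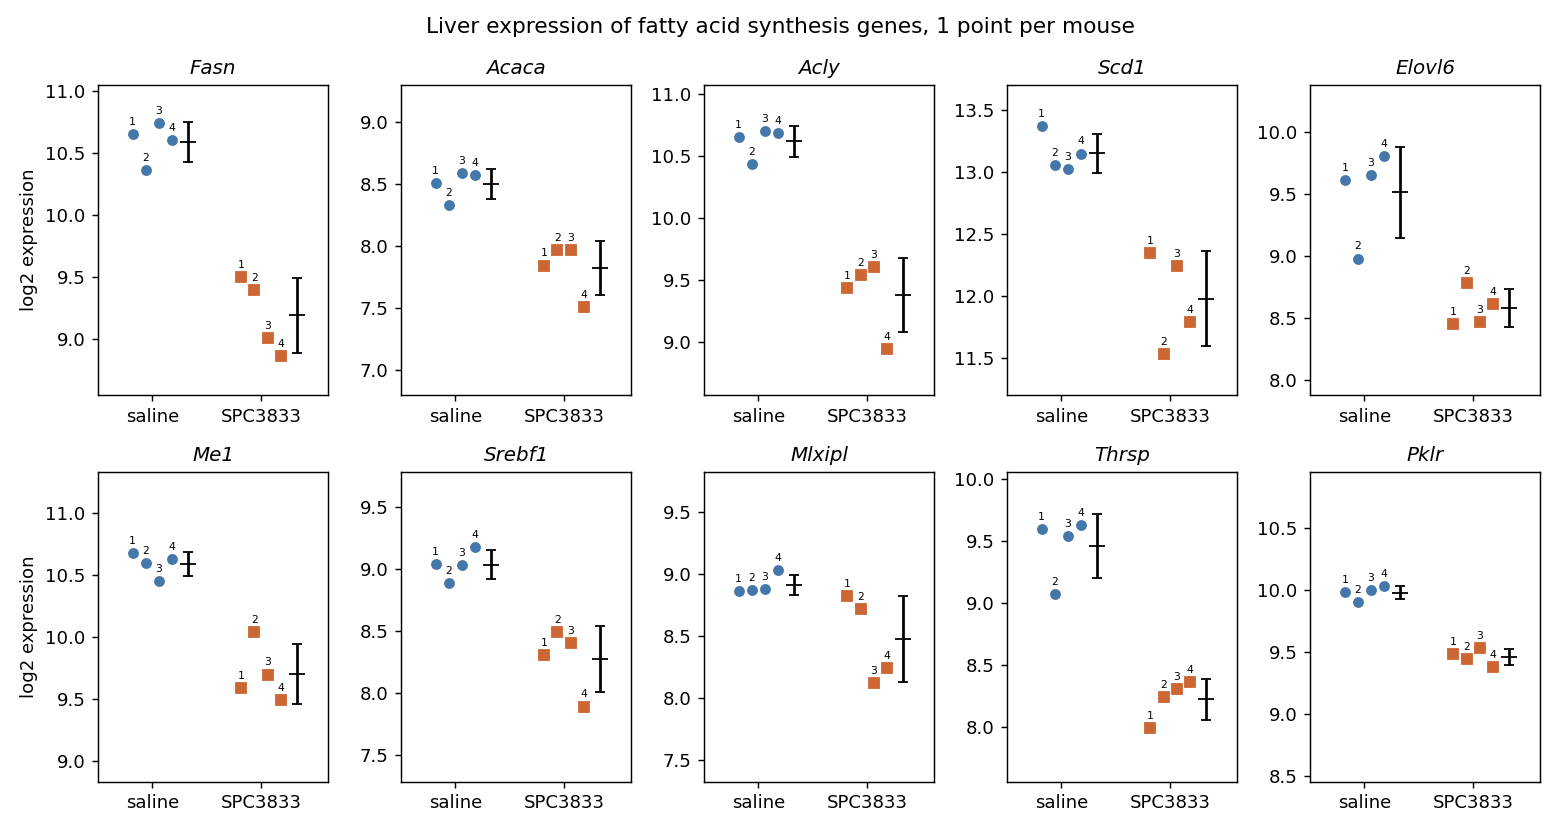
Log2 expression of each of the 10 genes, with 1 point per mouse numbered by array (circles, saline; squares, SPC3833), and beside each group its mean and SD (n = 4). Every panel spans the same height on the log2 scale but its own range of levels; the groups do not overlap in any panel, and the smallest gap, 0.04, is in Mlxipl.

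Elovl6 and Scd1 act on the palmitate that Fasn releases. Scd1 (ENSMUSG00000037071_at), the main stearoyl-CoA desaturase of mouse liver, was at 13.37, 13.06, 13.03 and 13.15 with saline and at 12.35, 11.54, 12.25 and 11.79 with SPC3833. The SPC3833 mice varied more (SD 0.38) than the saline mice (SD 0.16), with arrays 2 and 4 the low ones, and the groups did not overlap. Scd1 fell 2.25-fold (log2 fold change -1.17, SE 0.166, 95% interval -1.54 to -0.81, limma adjusted p = 0.00325). Bright genes were low on array 4 in general: the 26 other genes within 0.5 of the saline level of Scd1 lay at a median of -0.59 there, where Scd1 lay at -1.36 from its saline mean. Without array 4 the log2 fold change of Scd1 was -1.11 (limma adjusted p = 0.0111), without array 2 it was -1.02 (0.00554), and without both it was -0.85 (0.0120), a change of under 2-fold. After quantile normalization the log2 fold change of Scd1 was -1.09 (limma adjusted p = 0.00883). Cyclic loess normalization, which evens out differences that depend on brightness, was chosen after seeing the data. With it the log2 fold change was -1.14 (limma adjusted p = 0.00894).

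Elovl6 (ENSMUSG00000041220_at), the elongase of saturated fatty acids, read 9.61, 8.98, 9.65 and 9.80 in saline livers. It read 8.45, 8.78, 8.46 and 8.61 in SPC3833 livers. Here the saline group was the more variable one (SD 0.37 against 0.16), because saline array 2 was low, and the nearest values of the groups were 0.19 apart. The log2 fold change was -0.93 (SE 0.161, 95% interval -1.29 to -0.58, limma adjusted p = 0.00893), a 1.91-fold lower level. Leaving out saline array 2 gave -1.11 (limma adjusted p = 0.000723).

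Malic enzyme (Me1, ENSMUSG00000032418_at), a source of NADPH in the cytosol, was at 10.68, 10.59, 10.45 and 10.63 with saline and at 9.59, 10.04, 9.70 and 9.49 with SPC3833. The SPC3833 mouse of array 2 was the highest of its group and still 0.41 below the lowest saline mouse. Me1 fell 1.85-fold (log2 fold change -0.89, SE 0.119, 95% interval -1.15 to -0.63, limma adjusted p = 0.00237). Its log2 fold change was -0.81 without array 4 (limma adjusted p = 0.00735) and -0.999 without array 2 (0.000767). The 6 enzymes had a median log2 fold change of -1.05, and all 6 were called lower, beside 1.74% of all genes.

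**Figure D2:**
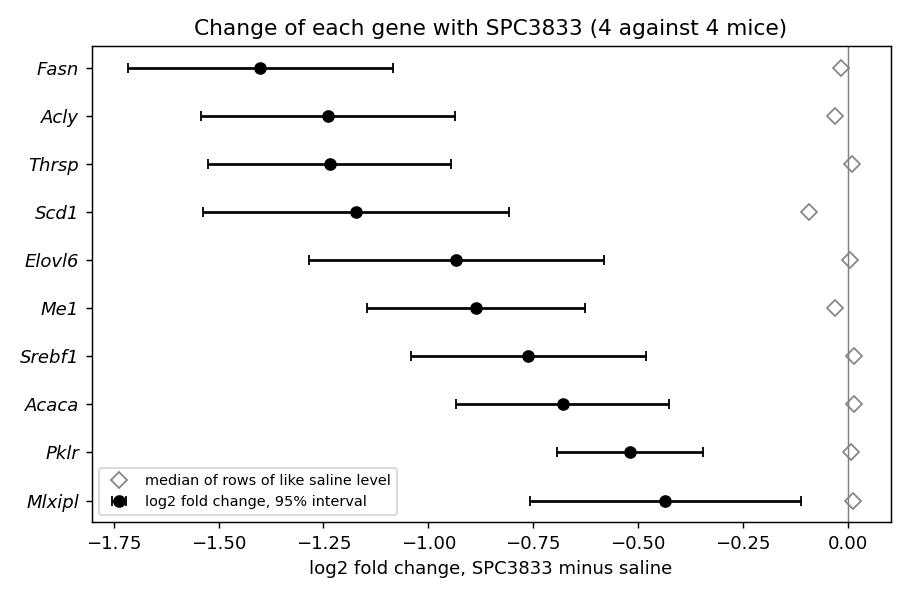
Log2 fold change of each gene, SPC3833 minus saline, with its 95% interval from the fit over all genes (filled circles, 4 against 4 mice), ordered by size. Open diamonds give the median log2 fold change of the other genes within 0.5 of the same saline level. These medians lie between -0.09 and 0.02. Every interval ends below 0, but the intervals are for single genes and are not adjusted over all genes. Mlxipl was not called (limma adjusted p = 0.137).

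Among the regulators, Srebf1 (ENSMUSG00000020538_at) was at 9.04, 8.89, 9.04 and 9.18 in saline livers. With SPC3833 it was at 8.31, 8.49, 8.40 and 7.89. The groups were separated by 0.39 at their nearest values, and array 4 was again the lowest. Srebf1 fell 1.70-fold (log2 fold change -0.76, SE 0.128, 95% interval -1.04 to -0.48, limma adjusted p = 0.00804). Its promoters give rise to more than one isoform, and the single row for the gene does not separate them. Without SPC3833 array 4 the log2 fold change was -0.63 (limma adjusted p = 0.0090).

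Thrsp (ENSMUSG00000035686_at) changed by nearly the same amount as Acly. Its values were 9.60, 9.07, 9.54 and 9.63 with saline and 7.99, 8.24, 8.31 and 8.36 with SPC3833. Saline array 2 was low, as for Elovl6, and array 4 was here the highest of the SPC3833 mice. Thrsp fell 2.35-fold (log2 fold change -1.24, SE 0.133, 95% interval -1.53 to -0.94, limma adjusted p = 0.000604), and the nearest values of the groups were 0.71 apart.

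Mlxipl (ENSMUSG00000005373_at) was the exception. Its saline values were 8.86, 8.87, 8.88 and 9.03, and its SPC3833 values were 8.82, 8.72, 8.12 and 8.24. SPC3833 arrays 1 and 2 lay at -0.09 and -0.19 from the saline mean, close to the saline mice, while arrays 3 and 4 lay at -0.79 and -0.67. The log2 fold change of -0.43 (SE 0.148, 95% interval -0.76 to -0.11) had a limma adjusted p of 0.137 and an unadjusted p of 0.0127. The groups just failed to overlap, by 0.04, and a two-sided exact permutation test gave 0.0286, which is the lowest p possible with 4 mice a group. Its adjusted p ranged from 0.0622 to 0.277 over 19 alternative fits, so it passed in none of them. The single row does not separate transcripts from the different starts listed for Mlxipl.

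Pklr (ENSMUSG00000041237_at), the pyruvate kinase gene and a textbook target of the protein encoded by Mlxipl, was the most uniform of the 10. Its values were 9.99, 9.91, 9.999 and 10.03 with saline and 9.49, 9.45, 9.53 and 9.38 with SPC3833. Both groups were tight (SD 0.054 and 0.065) and 0.37 apart at their nearest values. Pklr fell 1.43-fold (log2 fold change -0.52, SE 0.0795, 95% interval -0.69 to -0.35, limma adjusted p = 0.00505), the smallest change of the 9 genes called. Without array 4, the lowest SPC3833 value by a small margin, the log2 fold change was -0.49 (limma adjusted p = 0.0126).

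Read together, 9 of 10 genes (Fasn, Acaca, Acly, Scd1, Elovl6, Me1, Srebf1, Thrsp and Pklr) were called at an adjusted p under 0.05, against 4.07% of all 22361 genes in either direction and 1.74% of them in the lower direction. These shares rest on 911 calls, 390 of them lower, and depended on the arrays and the scaling. There were 467 calls without saline array 2, and the lower calls numbered 235 without saline array 4, 612 after quantile normalization and 642 after cyclic loess, while the same 9 of the 10 genes were called each time. Of these 9, Fasn, Acly, Thrsp and Scd1 fell at least 2-fold, a size that 0.224% of all genes reached with a call. Scd1 no longer reached it without SPC3833 arrays 2 and 4. SPC3833 values lay below saline values without overlap for all 10, against 4.34% of all genes. The exact permutation test, two-sided, therefore gave 0.0286 for each of the 10. The median log2 fold change of the 10 was -0.91, beside the 0.03 of all genes. The genes were listed with earlier results of these data known, so these shares describe the list and do not test it.

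**Figure D3:**
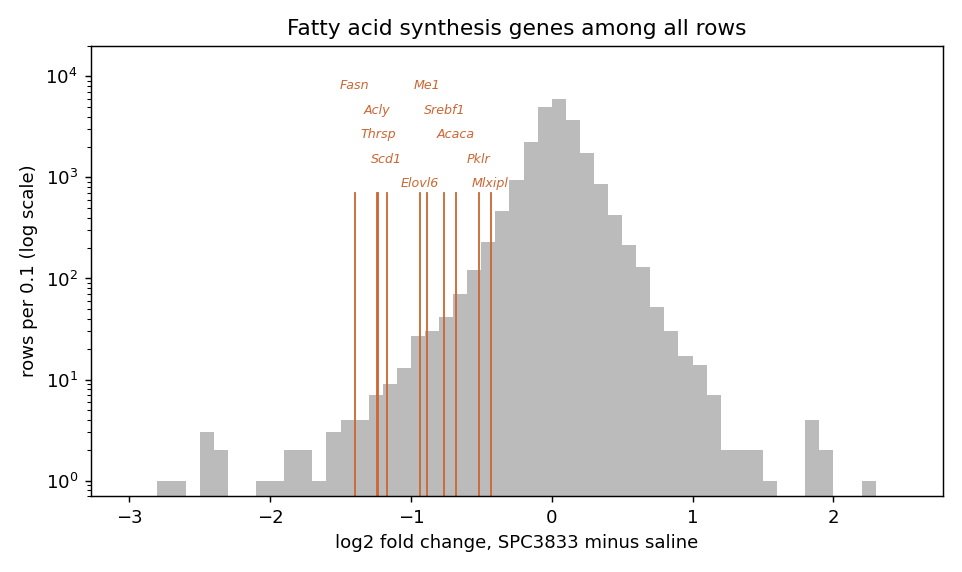
Number of genes in each step of 0.1 of log2 fold change, SPC3833 minus saline, over all 22361 genes (grey bars, log scale). Vertical lines mark the 10 genes of fatty acid synthesis, which lie between -1.40 (Fasn) and -0.43 (Mlxipl), all on the lower side; the lines of Acly and Thrsp, both at -1.24, coincide.

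The 10 genes did not order the mice alike. All 10 were below the saline mean in each of the 4 SPC3833 mice, with a median difference over the 10 genes of -0.90, -0.64, -0.90 and -1.10 on arrays 1 to 4. Array 4 held the lowest SPC3833 value for 6 genes (Fasn, Acaca, Acly, Me1, Srebf1 and Pklr) but the highest for Thrsp. For some of these 6, other genes within 0.5 of the same saline level were also low on array 4. Their median there was -0.19 for Fasn, -0.20 for Acly and Me1 and -0.12 for Pklr, but -0.02 for Acaca and -0.04 for Srebf1. On array 2 it was 0.12 to 0.15 for these 6. The part of such array offsets in the order and spread of the mice was not tested. Array 1 was lowest for Elovl6 and Thrsp, array 2 for Scd1, and array 3 for Mlxipl. On array 2 the median difference was the smallest, yet its Scd1 value was the lowest of the group, at -1.62 from the saline mean. The SD between mice was larger with SPC3833 than with saline for 8 of the 10 genes, all but Elovl6 and Thrsp, with medians of 0.254 and 0.123. Over all genes the median SD was 0.151 with SPC3833 and 0.127 with saline. A test of this difference in spread was not run.

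Saline mouse 2 had the lowest saline value for 7 of the 10 genes (Fasn, Acaca, Acly, Elovl6, Srebf1, Thrsp and Pklr). Its median difference from the saline mean was -0.16, against 0.05, 0.05 and 0.07 on saline arrays 1, 3 and 4. For Elovl6 and Thrsp it was at -0.53 and -0.38, while Mlxipl and Me1 were at -0.04 and 0.01. The 2312 genes with a saline level of 8 to 11 had a median of -0.03 there. Without it, the median log2 fold change of the 10 genes was -0.998, and the same 9 passed.

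**Figure D4:**
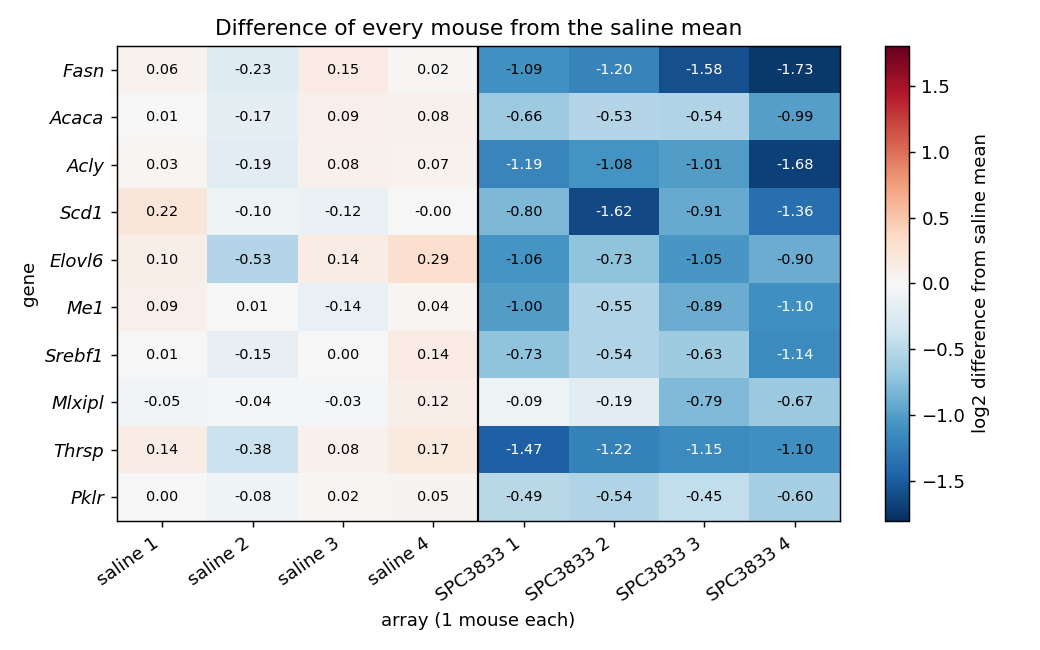
Log2 difference of each array (1 mouse each) from the mean of the 4 saline arrays, for each of the 10 genes. The SPC3833 columns are below 0 throughout, from -0.09 for Mlxipl on array 1 to -1.73 for Fasn on array 4; saline array 2 is the bluest column among the saline mice, down to -0.53 for Elovl6.

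Mlxipl also followed the other genes least closely. The Pearson correlation of a gene with the mean of the other 9, each scaled to the same SD, over the 8 arrays was 0.74 for Mlxipl, 0.88 for Scd1, 0.91 for Elovl6 and 0.93 to 0.99 for the rest. As the arrays form 2 groups that do not overlap, most of such a correlation is the group difference, and it is given as a description with no test. Outside the list, the 3 genes whose 8 values were most like the scaled mean of the 10 were picked by Pearson correlation. They were ENSMUSG00000027577 (0.995), ENSMUSG00000024978 (0.995) and ENSMUSG00000042010 (0.990). The first went from 7.21 ± 0.19 (SD, n = 4) with saline to 5.99 ± 0.23 with SPC3833, and the second from 10.32 ± 0.19 to 9.25 ± 0.17. The third went from 8.79 ± 0.08 to 7.68 ± 0.14. The sources used here pair none of these IDs with a name.

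By symbol, RefSeq (GRCm38.p6) promoter windows of 250 bases before to 50 after a gene start were found for 9 of the 10 genes, all but Scd1, with 14 windows in all, as some genes have several starts. Letters known from promoters of lipogenic genes were searched on both strands: the E-box CACGTG, the core of the element read by the protein of Mlxipl; CCAAT, the box bound by NF-Y, a usual partner of sterol regulatory element-binding proteins; and TCACNCCAC, a form of the sterol element. No motif overlapped a different one in these windows. CCAAT was in 8 of the 14 windows, against 37.4% of all 32851 windows in the table. By gene it was in 7 of the 9. A gene with several starts has more windows in which to match, and the share over all genes was not computed. The E-box was in 1 window, against 7.15% of all windows, and the sterol element in 1, against 1.24%. Both were in Mlxipl, at different starts. The search was for these exact letters, with N as any base. Elements spelled otherwise were not searched, so the lack of an E-box match, as in Pklr, does not show that the element is absent. A match of these letters is a description of the sequence, and binding was not measured.

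The upstream stretches shown are those of Fasn and Thrsp, which are among the genes that changed most and hold more than 1 CCAAT, and both starts of Mlxipl, the gene that did not pass. Each is the 250 bases before the start, 5′ to 3′ on the strand of the gene, with the matches in capitals (ATTGG is CCAAT on the opposite strand).
Fasn, chr11:120824548-120824797, minus strand: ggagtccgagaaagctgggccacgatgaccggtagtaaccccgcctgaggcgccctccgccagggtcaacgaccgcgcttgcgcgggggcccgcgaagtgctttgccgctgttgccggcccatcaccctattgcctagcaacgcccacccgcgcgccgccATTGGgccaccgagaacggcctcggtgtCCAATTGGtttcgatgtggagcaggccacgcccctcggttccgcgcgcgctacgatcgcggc
Thrsp, chr7:97417551-97417800, minus strand: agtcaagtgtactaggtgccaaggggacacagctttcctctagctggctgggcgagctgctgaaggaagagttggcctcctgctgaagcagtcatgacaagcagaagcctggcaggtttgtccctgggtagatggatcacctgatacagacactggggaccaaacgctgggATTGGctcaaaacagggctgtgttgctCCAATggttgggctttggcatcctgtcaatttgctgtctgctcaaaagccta
Mlxipl, first listed start, chr5:135106641-135106890, plus strand: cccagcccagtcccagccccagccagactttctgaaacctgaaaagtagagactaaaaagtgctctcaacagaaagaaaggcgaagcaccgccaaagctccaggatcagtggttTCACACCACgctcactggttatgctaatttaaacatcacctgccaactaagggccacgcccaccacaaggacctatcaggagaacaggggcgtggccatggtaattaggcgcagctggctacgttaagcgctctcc
Mlxipl, other start, chr5:135089640-135089889, plus strand: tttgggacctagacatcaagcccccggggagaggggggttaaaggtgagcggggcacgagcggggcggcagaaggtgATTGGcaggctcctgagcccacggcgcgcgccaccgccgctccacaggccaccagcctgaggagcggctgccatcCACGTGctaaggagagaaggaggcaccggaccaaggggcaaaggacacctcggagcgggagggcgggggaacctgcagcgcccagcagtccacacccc
In Fasn, a CCAAT and its mirror overlap in a single run of 8 bases that begins 62 bases before the start, and a further mirror copy begins at 90 before it. In Thrsp the copies begin at 79 and 52 bases before the start. In Mlxipl the sterol element begins 136 bases before one start, and the E-box 98 bases before the other.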

How the data were processed

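Liver RNA of 8 mice was amplified and labelled by a whole-transcript sense assay for Affymetrix arrays, per the labels' protocols. What the authors deposited is a table of log2 values, with 22361 probe sets named by Ensembl gene ID. The log2 scale was read from the range of the values. Per the submitters' processing notes the affy package was used, and its version, the background correction, the normalization and the build are not given in the sources used here. Symbols of the 10 genes came with the list. No ID could be matched to the gene table (49997 entries, 0 with an Ensembl ID), so 14 further lists, of other pathway genes and of markers of cell types, were not analysed here, and no gene outside the 10 is named.

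Groups came from the sample titles. Arrays of a group shared at most 0.134% identical values. SPC3833 was compared with saline over all 22361 genes with limma 3.58.1 in R 4.3.3 (lmFit, eBayes), two-sided, with no filter and no covariate, and Benjamini-Hochberg adjustment over all genes; calls are at adjusted p under 0.05. The code was tested on simulated data. Single genes also had a two-sided exact permutation test over 70 assignments. The number of arrays, 4 a group, limits the precision (median SE of a log2 fold change 0.106). All 10 genes were to be named with every value, and outside them the 3 genes most like their mean, which are given as unnamed IDs. The genes and lists were chosen with earlier results of these data known. Alternatives were 3 scalings, 2 filters, trend, robust variances, array weights, replicate block and leaving out each array. Figures were drawn with matplotlib 3.10.9.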

Additional observations from a re-analysis of the deposited data

Results flagged for a closer look

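Of 26 sets of 4 values examined, 4 held an array set apart from the other 3 by Dixon's criterion, and chance gives about 1 in 20. For Mlxipl, saline array 4 was at 9.03, against 8.86 to 8.88 on the other saline arrays. For Thrsp, saline array 2 was at 9.07, against 9.54 to 9.63. The median difference of the 10 genes from the saline mean was -0.16 on saline array 2, against 0.05 to 0.07 on the others, and Thrsp is part of it. SPC3833 array 4 had a maximum over all genes of 13.20, where the maxima of arrays 1 to 3 were 14.13 to 14.17. The part of these arrays in the changes was not tested beyond the fits that leave them out, in which the same 9 genes were called.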

How the results depend on the processing

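In each of 19 alternative fits 9 of the 10 genes passed and Mlxipl did not, and no gene changed direction. The highest adjusted p among the 9 was 0.0362, for Pklr, with log2 fold changes of -0.56 to -0.47. Fasn ranged from -1.50 to -1.29 and Scd1 from -1.296 to -0.854. The median of the 10 ranged from -1.001 to -0.854. Cyclic loess normalization and the fit without SPC3833 arrays 2 and 4 were chosen after seeing the data.

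Of all genes, 911 were called. At adjusted p under 0.1 there were 1582, among genes above the median 1552 (fewer genes tested), and without SPC3833 arrays 2 and 4 there were 545. Leaving out 1 array gave 467 (saline array 2) to 967 (SPC3833 array 2). Lower calls numbered 390, and 235 (saline array 4) to 549 (SPC3833 array 2) with 1 array left out. The share of rises among calls was 57.2% with the values as they are, 42.6% with quantile normalization, 36.2% and 45.3% with arrays centred on the median and the 75th percentile, and 40.7% with cyclic loess. The cause was not tested.

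With the replicate block 856 genes and the same 9 of the 10 were called. Across genes, deviations from the group means correlated between arrays of 1 number at 0.16, 0.04, -0.03 and 0.14, and 5 of 8 arrays correlated best with their own number, so the numbers were not taken as pairs. Tests of other pathway genes were not run, since their IDs could not be named.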
